A study of Arabidopsis thaliana with 12 samples.

Results

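Transcript levels of 8 Arabidopsis thaliana genes of the Cys branch of the Arg/N-degron pathway were examined. They were chosen by name: the plant cysteine oxidase genes PCO1 (AT5G15120), PCO2 (AT5G39890), PCO3 (AT1G18490), PCO4 (AT2G42670) and PCO5 (AT3G58670), the Arg-transferase genes ATE1 (AT5G05700) and ATE2 (AT3G11240), and PRT6 (AT5G02310). All 8 were among the 23396 genes listed, and all 8 passed the filter on low counts, with deposited counts between 23 and 2317 in every sample. RNA-seq counts came from 12 samples of wild-type Col-0 whole seedlings, 3 biological replicates in each of 4 groups: hypoxia/flg22 (HF), hypoxia/mock (HM), normoxia/flg22 (NF) and normoxia/mock (NM). The seedlings grew in continuous light on agar with sucrose, were moved to liquid medium overnight, and were treated for 1 h when 10 days old. At 100 nM, flg22 was given as the elicitor of pattern-triggered immunity; it is a short piece of the flagellin protein of bacteria. Mock samples received water. Hypoxia was imposed in anaerojars at the same time, whereas normoxic dishes stayed in ambient air. No mutant entered these groups. Each sample pooled 5 whole seedlings, so that fewer cells of a type and less RNA per cell cannot be told apart.

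In plants, proteins that begin with Met-Cys can lose the Met, which exposes the Cys. Plant cysteine oxidases use molecular oxygen to oxidize this Cys, Arg-transferases then attach an Arg, and the ubiquitin ligase PRT6 recognizes the Arg and marks the protein for degradation. When oxygen is scarce, the oxidation slows and the substrates persist. The best known substrates are the group VII ERFs (ERF-VIIs), transcription factors that activate hypoxia response genes, and PCO1 and PCO2 are themselves known as hypoxia response genes, whereas PCO4 and PCO5 are known for expression that depends less on oxygen.

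The coding sequences of the substrates are shown because their second codon, a Cys codon, is what the oxidases act on once translated. The first 24 coding bases are given 5′ to 3′ from RefSeq (build TAIR10.1), with the Cys codon in capitals.
RAP2.12: atgTGTggaggagctataatatcc
RAP2.2: atgTGTggaggagctataatctcc
RAP2.3: atgTGTggcggtgctattatttcc
HRE1: atgTGCggaggagctgtaatttcc
HRE2: atgTGTgggggagctatcatttct
ZPR2: atgTGTctgacaacttcagagcca
VRN2: atgTGTaggcagaattgtcgcgcg
All 5 ERF-VII genes (RAP2.12, RAP2.2, RAP2.3, HRE1 and HRE2) continue alike after the Cys codon, with 2 Gly codons and an Ala codon, and VRN2, a Polycomb protein, and ZPR2, a small leucine zipper protein of the shoot apex, share only the Cys codon. A Cys codon after the start codon was found in 207 of 27444 protein-coding genes of this annotation, or 0.754%.

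The 8 genes lie on 4 chromosomes of TAIR10.1. PCO1 (chr5:4898641-4900734, plus strand) and PCO2 (chr5:15974270-15976270, plus strand) each have 5 exons, with transcripts of 1438 and 1361 bases. PCO3 (chr1:6366520-6368879, plus strand) also has 5 exons and overlaps AT1G18486 on the same strand by 234 bases, so that reads of that stretch cannot be assigned to either gene with certainty. PCO4 (chr2:17771697-17774647, minus strand) and PCO5 (chr3:21703385-21706137, minus strand) have 6 exons each. ATE1 (chr5:1712670-1715731, minus strand) and ATE2 (chr3:3518472-3521188, minus strand) have 6 exons each, and PRT6 (chr5:473868-482942, plus strand) has 18 exons and the longest transcript, 6746 bases. ATE2 overlaps AT3G11230 by 6 bases and PRT6 overlaps AT5G02320 by 150 bases, both on the opposite strand, and whether counting used strand is not given in the sources used here. Stretches of 31 bases shared between transcripts were few: PCO4 and PCO5 shared 2, ATE1 and ATE2 shared 3, and no other pair of the 8 shared any.

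The total count per sample was between 21307648 and 21554051. Levels are given as normalized counts (CPM, scaled to the TMM-adjusted size of each library). Fold changes came from the quasi-likelihood test of edgeR, fitted once to all samples and 20074 genes. A gene was called when its Benjamini-Hochberg adjusted p-value was under 0.05 and its absolute log2 fold change (log2FC) was above 0.585. The treatments were checked with marker genes. ADH1, the alcohol dehydrogenase of fermentation, had 184, 482 and 113 CPM in HF and 177, 35.1 and 107 CPM in HM, against 7.49 to 15.3 CPM in the 6 normoxic samples, and no hypoxic sample overlapped a normoxic one. LBD41, another hypoxia marker, had 1034, 1932 and 735 CPM in HF and 751, 306 and 690 CPM in HM. It had 37.8, 155 and 52.7 CPM in NF against 21.6, 20.8 and 12.7 CPM in NM. LBD41 was thus also higher with flg22 in normoxia without overlap, as were 12.3% of tested genes. FRK1, a receptor kinase gene used as a flg22 marker, had 2.25, 11.6 and 17.7 CPM in HF and 2.26, 20.0 and 65.5 CPM in NF, against 2.53, 0.351 and 46.4 CPM in HM and 0.377, 0.790 and 38.3 CPM in NM. The mock libraries numbered 3 therefore stood above the other mock libraries and above several flg22 libraries in FRK1. In replicate 1, HF and NF were also below HM. The mean of FRK1 was lower in HF (10.5 CPM) than in HM (16.4 CPM) and NM (13.1 CPM), so that FRK1 did not show the flg22 treatment in HF. Each result called below is also given without the 2 mock libraries numbered 3. The samples are labelled as whole seedlings, and markers of shoot (3 of 3) and root (5 of 5) were detected. Root marker levels differed widely, from 1526 to 3298 CPM for PYK10 to 0.344 to 2.06 CPM for WER. The levels of WER lay within the range of 2 seed storage genes, which summed to 0.135 to 3.76 CPM.

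PCO1 and PCO2 were the members whose expression followed oxygen. PCO1 had 78.4, 131 and 42.6 CPM in HF replicates 1, 2 and 3, and 64.8, 20.2 and 26.0 CPM in HM, against 6.50, 11.2 and 2.76 CPM in NF and 5.74, 3.53 and 2.37 CPM in NM. PCO2 had 38.4, 72.1 and 21.9 CPM in HF and 41.6, 13.9 and 25.7 CPM in HM, against 2.39, 4.64 and 1.13 CPM in NF and 2.3, 1.90 and 1.25 CPM in NM. For both genes the lowest of the 6 hypoxic samples was above the highest of the 6 normoxic ones, as was the case for 0.598% of tested genes. The span was wide, with the highest sample 55.4-fold above the lowest for PCO1 and 63.7-fold for PCO2. On the log2 CPM scale, the SD over the 12 samples was 1.98 for PCO1 and 2.15 for PCO2, larger than that of 97.9% and 98.4% of tested genes.

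**Figure D1:**
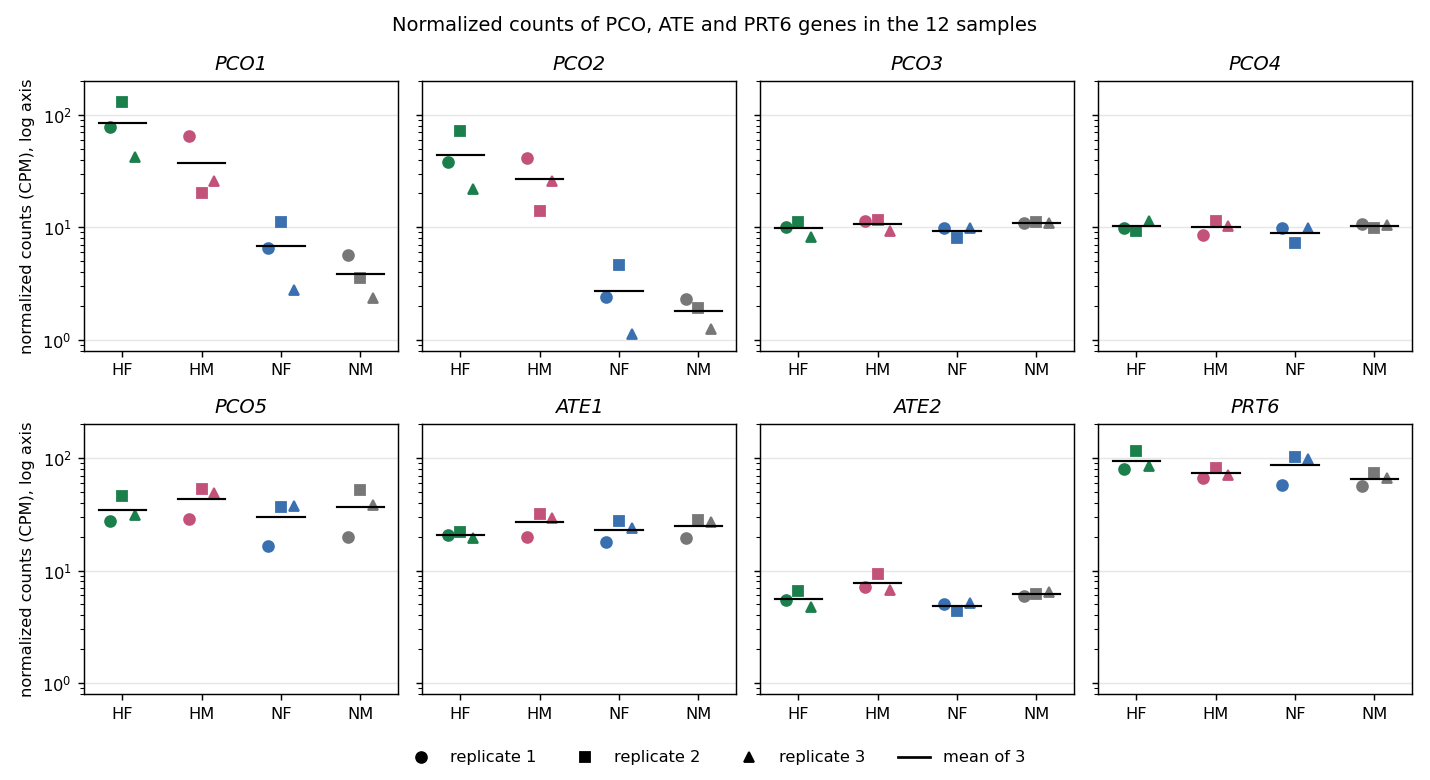
Normalized counts (CPM, log axis) of the 8 genes in each sample, by group (HF, HM, NF and NM from left to right), with 1 symbol per replicate number and a line at the mean of 3. PCO1 and PCO2 lay between 13.9 and 131 CPM in the hypoxic samples and between 1.13 and 11.2 CPM in the normoxic ones, whereas each of the other 6 genes overlapped between hypoxic and normoxic samples.

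The hypoxia response was first taken as an average over mock and flg22, that is, the mean of the HM vs NM and HF vs NF log2FCs. PCO1 averaged 60.6 CPM in the 6 hypoxic samples and 5.36 CPM in the 6 normoxic samples, with a log2FC of 3.44 ± 0.46 (SE; 10.8-fold; adjusted p = 0.0117, edgeR). PCO2 averaged 35.6 CPM in hypoxia and 2.27 CPM in normoxia, with a log2FC of 3.95 ± 0.44 (15.5-fold; adjusted p = 0.0064, edgeR). Thus 2 of the 8 genes were called, both higher in hypoxia, where 0.334% of all tested genes were called in either direction and 0.299% were called higher. Among the 60 genes called higher, PCO2 was in place 16 and PCO1 in place 18 by log2FC. The 95% intervals of the log2FC were 2.42 to 4.45 for PCO1 and 2.98 to 4.93 for PCO2. Without the mock libraries numbered 3, the log2FCs were 3.41 for PCO1 and 3.87 for PCO2, but the adjusted p-values were 0.131 and 0.120 and no gene of the whole table was called. Leaving out NM replicate 3 alone gave an adjusted p of 0.0613 for PCO1, whereas PCO2 was called whichever single library was left out.

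Each hypoxia comparison was also examined on its own. In HM vs NM, the log2FC was 3.25 ± 0.65 for PCO1 (adjusted p = 0.194, edgeR) and 3.89 ± 0.62 for PCO2 (adjusted p = 0.145, edgeR). In HF vs NF, it was 3.62 ± 0.65 for PCO1 (adjusted p = 0.127, edgeR) and 4.02 ± 0.62 for PCO2 (adjusted p = 0.0923, edgeR). In the main edgeR fit, which had no term for replicate number, neither comparison called any of the 20074 genes (0.0%). An unadjusted p under 0.05 was reached by 1191 genes (5.93%) in HM vs NM and 992 (4.94%) in HF vs NF. The samples of PCO1, PCO2 and ATE2 were higher in HM than in NM without overlap, as were those of 5.54% of tested genes, and those of PCO1 and PCO2 were higher in HF than in NF without overlap, as were those of 5.08%. Another edgeR fit added a term for replicate number shared by all 4 groups (the replicate block). It called 13 genes in HM vs NM and 21 in HF vs NF. With it, PCO2 was called in HM vs NM (log2FC 3.99, adjusted p = 0.0434, edgeR) and PCO1 was not (adjusted p = 0.0527, edgeR). The term also covered HF, whose replicate 3 did not deviate with the other same-numbered samples. DESeq2 on all samples called both genes in HM vs NM, where it called 166 genes, and in HF vs NF, where it called 110.

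The same-numbered samples gave the spread of these responses. The HM over NM ratio of PCO1 was 11.3, 5.73 and 11.0 in replicates 1, 2 and 3, and its HF over NF ratio was 12.1, 11.7 and 15.5. The HM over NM ratio of PCO2 was 18.1, 7.30 and 20.5, and its HF over NF ratio was 16.1, 15.5 and 19.4. HM replicate 2 had the lowest PCO1 and PCO2 of the hypoxic samples, and the lowest ADH1, at 35.1 CPM.

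PCO1 and PCO2 were also compared between flg22 and mock samples. PCO1 was 1.13-, 3.18- and 1.16-fold higher in NF than in same-numbered NM samples, and 1.21-, 6.49- and 1.64-fold higher in HF than in same-numbered HM samples. The groups overlapped in both cases. The fitted log2FC of PCO1 was 0.81 ± 0.61 in NF vs NM, 1.18 ± 0.59 in HF vs HM and 1.00 ± 0.43 on average over normoxia and hypoxia (adjusted p = 0.637, 0.352 and 0.165, edgeR), with a 95% interval of the average from 0.06 to 1.94. The log2FC of PCO2 was 0.57 ± 0.59 in NF vs NM, 0.71 ± 0.54 in HF vs HM and 0.64 ± 0.40 on average (adjusted p = 0.786, 0.591 and 0.365, edgeR). None of the 8 genes was called for flg22, where 7.07% of tested genes were called in NF vs NM, 4.38% in HF vs HM and 12.0% on average. Replicate 2 gave the widest ratios. The HF over HM ratio of PCO2 was 5.19 in replicate 2, and 0.924 and 0.854 in replicates 1 and 3.

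The combined treatment was set against untreated seedlings, and here too PCO1 and PCO2 were the members called. In HF vs NM, PCO1 averaged 84.1 ± 44.7 CPM in HF and 3.88 ± 1.71 CPM in NM (SD, n = 3 each), with a log2FC of 4.43 ± 0.68 (adjusted p = 0.0025, edgeR). PCO2 averaged 44.2 ± 25.6 CPM in HF and 1.82 ± 0.53 CPM in NM (SD, n = 3 each), with a log2FC of 4.59 ± 0.64 (adjusted p = 0.0018, edgeR). Of all tested genes, 10.4% were called in this comparison and 7.85% were called higher. Both genes were also called without the mock libraries numbered 3 (log2FC 4.18 and 4.39, adjusted p = 0.0258 and 0.0221, edgeR). The interaction, which is the hypoxia response with flg22 minus that without, was 0.37 ± 0.85 for PCO1 (95% interval -1.50 to 2.25) and 0.13 ± 0.81 for PCO2 (-1.66 to 1.93), so that differences of several-fold in either direction lay within the interval. No gene of the table was called for the interaction (0.0%), and 1.13% had an unadjusted p under 0.05.

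**Figure D2:**
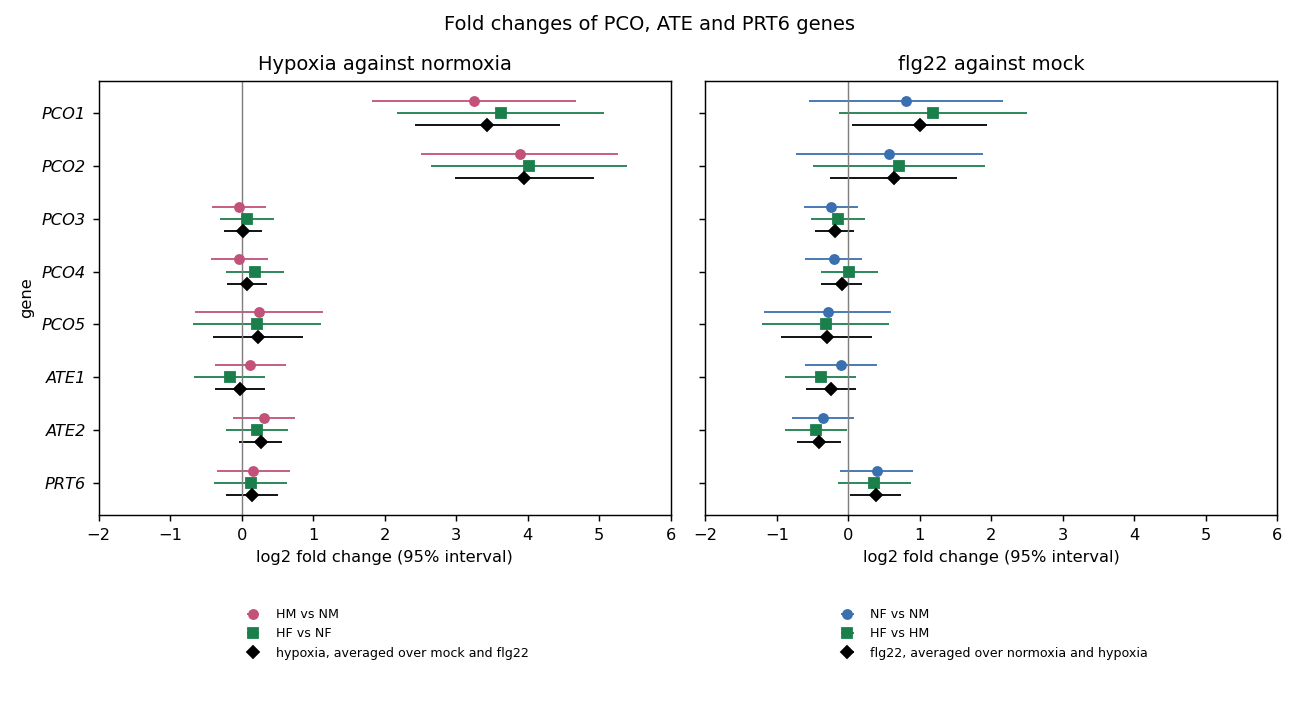
Fitted log2FCs of the 8 genes with 95% intervals, for hypoxia against normoxia (left: HM vs NM, HF vs NF and their average) and flg22 against mock (right: NF vs NM, HF vs HM and their average). The intervals of PCO1 and PCO2 started at 1.82 or higher in every hypoxia comparison, whereas those of the other 6 genes included 0.

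PCO3, PCO4 and PCO5, the other oxidase genes, did not pass the test in any comparison. PCO3 had 9.99, 11.2 and 8.16 CPM in HF and 11.4, 11.6 and 9.31 CPM in HM, against 9.87, 8.09 and 9.89 CPM in NF and 11.0, 11.2 and 10.9 CPM in NM. PCO4 had 9.89, 9.30 and 11.5 CPM in HF and 8.63, 11.5 and 10.3 CPM in HM, against 9.83, 7.22 and 9.89 CPM in NF and 10.7, 9.90 and 10.4 CPM in NM. Both genes were among the least variable of the table: their SD over the 12 samples, 0.18 on the log2 CPM scale for each, was larger than that of only 8.20% (PCO3) and 8.91% (PCO4) of tested genes. The averaged hypoxia log2FC was 0.02 ± 0.12 for PCO3 (95% interval -0.25 to 0.29) and 0.08 ± 0.13 for PCO4 (-0.21 to 0.36). With scaling by library size only, these were -0.12 and -0.06. In NF, the samples of PCO3 and of PCO4 lay below those of NM without overlap, as did those of 9.22% of tested genes. For PCO4, the highest NF sample and the lowest NM sample were nearly equal, at 9.891 and 9.896 CPM. The log2FCs were -0.24 ± 0.17 for PCO3 and -0.20 ± 0.18 for PCO4 (adjusted p = 0.595 and 0.725, edgeR).

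PCO5 varied more between samples of a group. It had 27.7, 45.8 and 31.2 CPM in HF and 29.0, 53.0 and 48.6 CPM in HM, against 16.4, 36.4 and 37.3 CPM in NF and 19.8, 52.5 and 38.0 CPM in NM. Replicate 1 was the lowest sample in 4 of 4 groups. Between same-numbered samples, the PCO5 ratios were 1.47, 1.01 and 1.28 for HM over NM and 1.69, 1.26 and 0.838 for HF over NF. They were 0.830, 0.694 and 0.982 for NF over NM and 0.955, 0.864 and 0.643 for HF over HM, so that each flg22 sample was below its same-numbered mock sample. The averaged hypoxia log2FC was 0.23 ± 0.29 (95% interval -0.40 to 0.86) and the averaged flg22 log2FC was -0.30 ± 0.29 (95% interval -0.94 to 0.33). Of 3 shoot markers, LHCB2.1 and RBCS1A were likewise lowest in replicate 1 in 4 of 4 groups, whereas LHCA1 was lowest there in 2 groups and highest in 2. Of 5 root markers, PYK10, TIP2;3, COBL9 and WER were highest in replicate 1 in 4 of 4 groups and SHR in 2 of 4. The part of shoot and root content in the levels of PCO5 was not tested.

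The order of the oxidase transcripts by mean level differed between groups, with PCO1 highest in HF and PCO5 highest in HM, NF and NM. Levels between genes were compared as CPM per kb of transcript. In HF, PCO1 was the highest of the 5 oxidase genes with 58.5 ± 31.1 CPM per kb (SD, n = 3), followed by PCO2 with 32.4 ± 18.8, PCO5 with 23.6 ± 6.47, PCO4 with 6.75 ± 0.74 and PCO3 with 5.80 ± 0.90. The step from PCO2 to PCO5 was within the SD of PCO2, and PCO1 was above PCO2 in each of the 3 HF samples. In HM, the order was PCO5 with 29.4 ± 8.62, PCO1 with 25.7 ± 16.8 and PCO2 with 19.9 ± 10.2 CPM per kb, and their order differed between the HM samples. In NF, PCO5 had 20.3 ± 7.97 CPM per kb, PCO1 4.75 ± 2.96 and PCO2 2.00 ± 1.31. In NM, PCO5 had 24.8 ± 11.1 CPM per kb, followed by PCO4 with 6.83 ± 0.26 and PCO3 with 6.53 ± 0.08, while PCO1 had 2.70 ± 1.19 and PCO2, the lowest, 1.34 ± 0.39.

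The share of PCO1 and PCO2 in the sum of the 5 oxidase genes per kb was 72.7%, 76.8% and 57.7% in HF and 70.2%, 32.6% and 45.0% in HM, against 21.1%, 24.7% and 6.81% in NF and 17.4%, 7.35% and 6.18% in NM. Every hypoxic sample had a larger share than every normoxic sample. The sum itself averaged 127 ± 55.6 CPM per kb in HF and 88.1 ± 17.3 in HM, against 38.5 ± 7.99 in NF and 42.2 ± 9.93 in NM (SD, n = 3 each), and also did not overlap between hypoxic and normoxic samples. The sum of PCO3, PCO4 and PCO5 averaged 36.1 CPM per kb in HF and 42.5 in HM, against 31.7 in NF and 38.2 in NM, and overlapped between them. These sums were not tested, since PCO1 and PCO2 were tested singly.

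**Figure D3:**
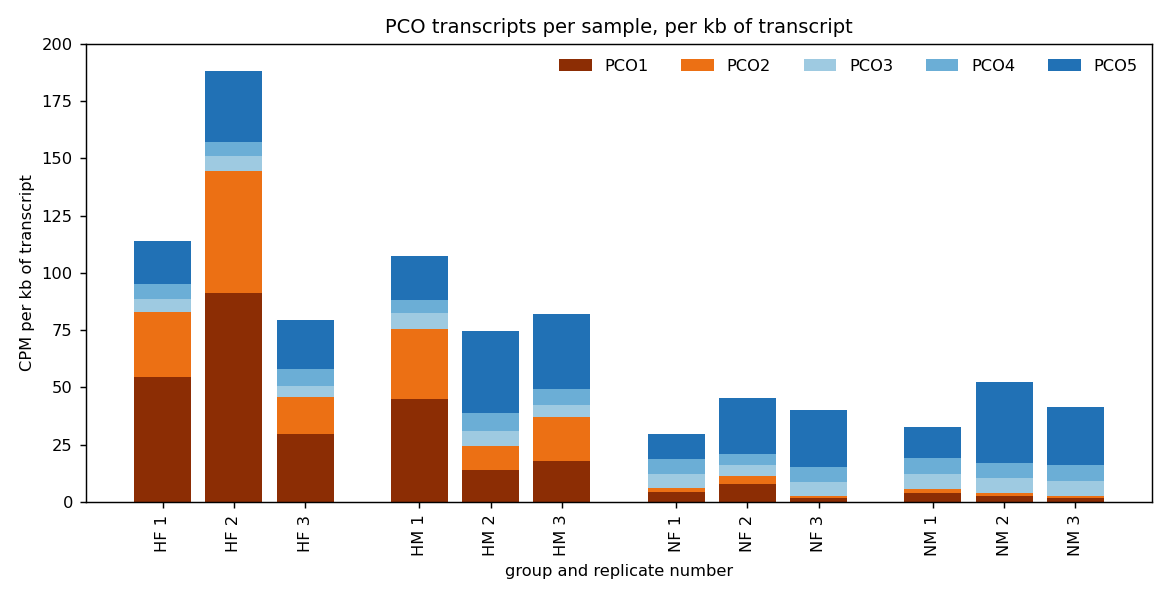
Stacked CPM per kb of transcript of PCO1 to PCO5 in each of the 12 samples, ordered by group (HF, HM, NF and NM) and replicate number. The PCO1 and PCO2 segments made up 32.6% to 76.8% of the bars in hypoxia and 6.18% to 24.7% in normoxia, and the hypoxic bars were between 74.5 and 188 CPM per kb.

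PCO1 and PCO2 moved together over the 12 samples (Pearson's r of log2 CPM = 0.986, n = 12), and the correlation of PCO1 with PCO3, PCO4 and PCO5 was -0.05, -0.10 and 0.08. These coefficients describe samples that share groups and libraries. The per-kb ratio of PCO1 to PCO2 was 1.93, 1.72 and 1.84 in HF and 1.48, 1.38 and 0.958 in HM, against 2.58, 2.29 and 2.3 in NF and 2.36, 1.75 and 1.79 in NM. The ratio was thus higher in each HF sample than in each HM sample, whereas NF and NM overlapped. It was also lower in each HM sample than in each NM sample, and lower in each HF sample than in each NF sample. These ratios were not tested. Ranked by the mean r to PCO1 and PCO2 among 18453 genes with a mean of at least 1 CPM, the 5 most alike were AT3G27220 (0.986), the ethylene receptor gene ETR2 (0.986), AT4G10265 (0.977), the aquaporin gene NIP2;1 (0.976) and AT3G10040 (0.974), which is HRA1, a trihelix repressor of ERF-VII activity. Their averages differed in size: ETR2 had 79.3 ± 40.7 CPM in HF and 49.2 ± 17.6 in HM, against 15.3 ± 5.43 in NF and 14.3 ± 3.17 in NM, whereas NIP2;1 had 103 ± 79.6 CPM in HF and 36.2 ± 41.5 in HM, against 0.398 ± 0.391 in NF and 0.355 ± 0.382 in NM (SD, n = 3 each).

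Because PCO1 and PCO2 moved together, the 250 bases upstream of their annotated starts are shown, 5′ to 3′, from RefSeq (build TAIR10.1, plus strand of chromosome 5). Capitals mark the W box core TTGAC, the motif of WRKY factors, read on either strand. The first is chr5:4898391-4898640 and the second is chr5:15974020-15974269.
PCO1: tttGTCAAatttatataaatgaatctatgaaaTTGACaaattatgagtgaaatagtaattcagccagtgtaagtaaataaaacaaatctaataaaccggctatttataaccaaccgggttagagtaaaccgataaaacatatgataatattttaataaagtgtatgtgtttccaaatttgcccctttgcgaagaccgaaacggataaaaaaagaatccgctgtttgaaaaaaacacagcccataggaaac
PCO2: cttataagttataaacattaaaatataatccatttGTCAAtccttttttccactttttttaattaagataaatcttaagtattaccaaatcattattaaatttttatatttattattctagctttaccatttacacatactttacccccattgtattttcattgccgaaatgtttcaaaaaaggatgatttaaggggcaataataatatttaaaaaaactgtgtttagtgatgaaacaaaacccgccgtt
The PCO1 window held 2 W box cores, starting 247 and 218 bases upstream, and the PCO2 window held 1, at 215 bases. The core was present in the windows of PCO5, ATE2 and PRT6 as well, with 1 match each, and in 44.9% of 27443 promoters of the same length. The GCC box (GCCGCC, 1.87% of promoters) and the G box (CACGTG, 6.49%) were searched on both strands and had no match in the 250-base windows of the 8 genes, so that no W box core overlapped another motif. A match describes letters only.

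Downstream of the oxidases, the Arg-transferase genes were not called in any comparison. ATE1 had 20.6, 21.9 and 19.4 CPM in HF and 20.0, 31.9 and 29.1 CPM in HM, against 17.8, 27.4 and 24.1 CPM in NF and 19.3, 28.3 and 26.8 CPM in NM. Its averaged hypoxia log2FC was -0.02 ± 0.16 (95% interval -0.37 to 0.33), and the groups overlapped in every comparison. ATE2 had 5.49, 6.58 and 4.75 CPM in HF and 7.13, 9.24 and 6.70 CPM in HM, against 5.02, 4.33 and 5.12 CPM in NF and 5.96, 6.18 and 6.43 CPM in NM. Its averaged hypoxia log2FC was 0.26 ± 0.14 (95% interval -0.04 to 0.57; adjusted p = 0.547, edgeR). The ATE2 samples were higher in HM than in NM without overlap, as were those of 5.54% of tested genes. They were lower in HF than in HM without overlap, as were those of 9.86% of tested genes, and lower in NF than in NM without overlap, as were those of 9.22%. The averaged flg22 log2FC of ATE2 was -0.41 ± 0.14 (adjusted p = 0.0811, edgeR), which is below the fold cutoff in size. This adjusted p ranged from 0.0197 to 0.202 over the alternatives. Per kb, ATE1 stood above ATE2 in each group, at 9.08 ± 0.55 against 2.68 ± 0.44 CPM per kb in HF, 11.9 ± 2.75 against 3.67 ± 0.65 in HM, 10.2 ± 2.15 against 2.3 ± 0.20 in NF and 10.9 ± 2.14 against 2.95 ± 0.11 in NM (SD, n = 3 each).

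PRT6, the ubiquitin ligase gene, had 79.8, 116 and 85.6 CPM in HF and 66.8, 81.4 and 71.0 CPM in HM, against 58.1, 103 and 97.3 CPM in NF and 56.3, 73.2 and 66.2 CPM in NM. The HF samples lay above the NM samples without overlap, as did those of 14.8% of tested genes, while NF and NM overlapped. The log2FC was 0.52 ± 0.23 in HF vs NM (adjusted p = 0.209, edgeR), and the averaged flg22 log2FC was 0.38 ± 0.16 (adjusted p = 0.165, edgeR; 0.0270 to 0.394 over the alternatives), below the fold cutoff in size. The averaged hypoxia log2FC was 0.14 ± 0.16 (95% interval -0.22 to 0.50). Per kb, PRT6 had 13.9 ± 2.90 CPM in HF and 10.8 ± 1.12 in HM, against 12.8 ± 3.61 in NF and 9.67 ± 1.25 in NM (SD, n = 3 each). Except in HF, its mean differed from that of ATE1 by less than the larger of their SDs. As for PCO5, replicate 1 was the lowest PRT6 sample in 4 of 4 groups, and replicate 2 was the highest in 4 of 4.

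The other genes of the pathway were taken as a list of 18, of which 17 passed the filter and were tested. In the averaged hypoxia comparison, 2 of 17 were called higher (HRE1 and HRA1) and none lower, where 0.299% of all tested genes were called higher, and the median log2FC was 0.17, against 0.19 for the 8 genes above and -0.0018 for all tested genes. In NF vs NM and in the averaged flg22 comparison, 1 of 17 was called, MAP2A, where 7.07% and 12.0% of all tested genes were called. In HF vs NM, 5 of 17 were called higher (HRE1, HRE2, HRA1, HB1 and MAP2A), where 7.85% of all tested genes were called higher, none was called lower, and the median log2FC was 0.07, against -0.05 for the 8 genes and -0.05 for all tested genes. No list member was called in HM vs NM, HF vs NF or HF vs HM. Without the mock libraries numbered 3, the adjusted p of MAP2A in NF vs NM was 0.0598, and those of HRE1, HRA1, HB1 and MAP2A in HF vs NM were 0.0182, 0.0462, 0.0489 and 0.0383 (edgeR).

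Among the substrate genes, HRE1 and HRE2 are ERF-VIIs known as hypoxia response genes, and HRE1 was called in the averaged hypoxia comparison. It had 90.4, 132 and 73.8 CPM in HF and 86.2, 50.5 and 82.9 CPM in HM, against 12.8, 24.6 and 22.8 CPM in NF and 11.4, 15.8 and 14.8 CPM in NM. The hypoxic and normoxic samples did not overlap, and the averaged log2FC was 2.34 ± 0.23 (adjusted p = 0.0030, edgeR; 0.101 without the mock libraries numbered 3). HRE2 had 5.94, 17.9 and 3.65 CPM in HF and 6.35, 0.351 and 0.810 CPM in HM, against 0.453, 0.825 and 0.492 CPM in NF and 0.453, 0.0465 and 0.129 CPM in NM. HM replicate 2 lay below every NF sample, and the averaged hypoxia log2FC of 3.73 ± 0.78 was not called (adjusted p = 0.0977, edgeR). HRE2 was called in HF vs NM (log2FC 5.36 ± 1.18, adjusted p = 0.0140, edgeR; 0.0767 without these libraries), a value that rests on 12, 1 and 3 counts in NM, and it overlapped between HM and NM samples. RAP2.12, RAP2.2 and RAP2.3, the ERF-VIIs known for constitutive expression, had averaged hypoxia log2FCs of 0.09 ± 0.20, 0.39 ± 0.16 and 0.32 ± 0.46, and none was called. RAP2.3 had the widest range, with 139, 309 and 159 CPM in HF and 184, 385 and 358 CPM in HM, against 44.6, 207 and 217 CPM in NF and 82.1, 397 and 291 CPM in NM. Like PCO5 and PRT6, it was lowest in replicate 1 in 4 of 4 groups. So were RAP2.12, RAP2.2, VRN2, MAP2B, BIG and ACBP2, whereas the other listed pathway genes were not. VRN2 had an averaged hypoxia log2FC of 0.12 ± 0.13, and ZPR2 was not tested, at 0.0863 to 0.602 CPM.

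Of the regulators of ERF-VII activity, HRA1 had 386, 489 and 230 CPM in HF and 427, 87.6 and 204 CPM in HM, against 17.5, 20.1 and 1.18 CPM in NF and 12.1, 3.86 and 3.80 CPM in NM. Its averaged hypoxia log2FC was 5.01 ± 0.70 (adjusted p = 0.0126, edgeR; 0.177 without the mock libraries numbered 3). HB1, a phytoglobin that scavenges nitric oxide, had 81.6, 128 and 48.0 CPM in HF and 71.3, 9.84 and 25.2 CPM in HM, against 15.4, 16.0 and 5.86 CPM in NF and 8.23, 3.39 and 3.11 CPM in NM. It was called in HF vs NM (log2FC 4.12 ± 0.77, adjusted p = 0.0057, edgeR; 0.0489 without these libraries), whereas its averaged hypoxia log2FC of 2.82 ± 0.51 had an adjusted p of 0.0556 (edgeR). MAP2A, 1 of the methionine aminopeptidases that remove the first Met, was called in the averaged flg22 comparison. It had 44.0, 37.7 and 46.4 CPM in HF against 33.5, 25.6 and 26.2 CPM in HM, and 38.3, 46.4 and 38.1 CPM in NF against 21.4, 24.4 and 24.6 CPM in NM. Its averaged flg22 log2FC was 0.69 ± 0.11 (adjusted p = 0.0018, edgeR; 0.0207 without the mock libraries numbered 3), and no flg22 sample overlapped a mock sample, as for 6.32% of tested genes that were higher. Scaling by library size only ended its call in these 3 comparisons: the averaged log2FC was 0.54, below the fold cutoff, and the adjusted p (edgeR) became 0.0689 for NF vs NM, with 0.0588 for HF against NM. This scaling lowered the median of all tested genes in the same comparison by 0.15. MAP1A and MAP2B, with averaged flg22 log2FCs of -0.01 ± 0.09 and -0.08 ± 0.13, were not called.

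**Figure D4:**
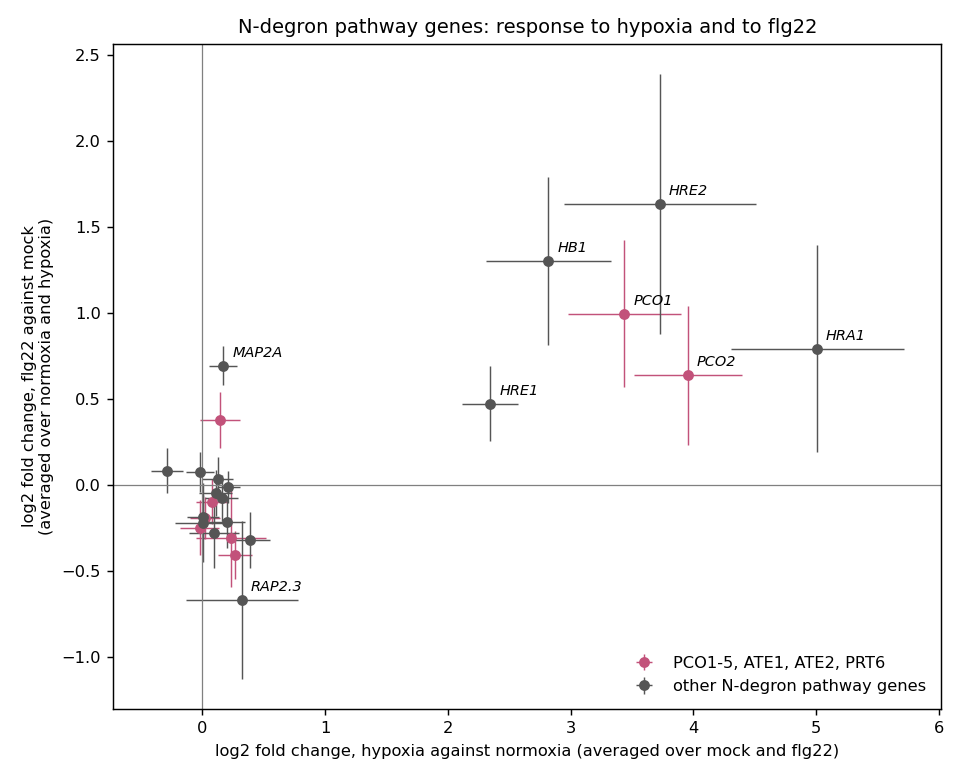
Averaged flg22 log2FC against averaged hypoxia log2FC, each ± SE, for the 8 genes and the 17 other tested pathway genes. PCO1, PCO2, HRE1, HRE2, HRA1 and HB1 had hypoxia log2FCs of 2.34 or more, the other 19 genes lay within 0.39 of 0 on that axis, and MAP2A stood at 0.69 on the flg22 axis.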

How the data were processed

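RNA-seq counts of 12 samples were used, with groups and replicate numbers taken from the sample labels. Paired-end reads were filtered by the authors with SOAPnuke and aligned with HISAT (genome build TAIR10, per the submitters' processing notes, which also name DESeq2). The table they deposited gives each gene an expected count that is not normalized. The counting tool, annotation and use of strand are not given in the sources used here. The 4 deposited columns of group means were not used. Of the deposited values 2.3% were not whole, and all were rounded (the tests had been planned for whole counts). No value of the 8 genes was affected.

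The 8 genes, the list of 18 pathway genes, the markers and the tests were chosen with earlier results of these data known. All tests used edgeR 4.0.16 in R 4.3.3: TMM factors (0.828 to 1.23), filterByExpr at a minimum count of 10 (20074 of 23396 genes), 1 quasi-likelihood fit with 4 group means, Benjamini-Hochberg adjustment over all tested genes, and SE computed as the absolute log2FC over the square root of F. The biological coefficient of variation was 0.362, and 0.237 with the replicate block. The p-values measure the spread between biological replicates as labelled. log2 CPM used a prior count of 2. Transcript lengths (the model with the longest coding sequence), positions and sequences came from RefSeq TAIR10.1. All 23396 identifiers matched it. Genes given with values were the 8, the list of 18 pathway genes, the treatment, shoot and root markers, and the 5 genes most correlated with PCO1 and PCO2. Python 3.11.15 with pandas 2.3.3, scipy 1.17.1 and matplotlib 3.10.9 was used. The fit was tested on simulated data.

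Same-numbered samples deviated together in every pair of HM and NM (mean r = 0.513) and of NF and NM (mean r = 0.529), but HF replicate 3 did not deviate with the others (lowest r = -0.11). By the rule that every r be above 0.1, the number was taken to pair the samples in HM vs NM and NF vs NM only. The main tests used no pairing, so that spread shared by same-numbered samples stayed in their error. No paired fit limited to the paired groups was run. Alternatives were DESeq2 1.42.0, DESeq2 size factors, no count filter, the replicate block (a term for replicate number over all 4 groups) and each sample left out. Scaling by library size only was among them, and leaving out both mock libraries numbered 3 was added after the data were seen.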

Additional observations from a re-analysis of the deposited data

How the results depend on the processing

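The call of PCO1 and PCO2 in the averaged hypoxia comparison was lost without the mock libraries numbered 3, while their log2FCs, given above, changed little. HM and NM then held fewer replicates, and no other pair of libraries was left out. An effect of these libraries and of fewer replicates therefore cannot be told apart. The call of both genes in HF vs NM did not change under any alternative. Without those libraries, 0 of the 8 genes and 0 genes of the table (67 with all samples) were called in the averaged hypoxia comparison, and the counts were 823 genes in NF vs NM (1419), 4 in HF vs HM (879), 1559 for flg22 averaged (2410) and 1186 in HF vs NM (2095). With the replicate block, the counts were 13 genes in HM vs NM (0), 21 in HF vs NF (0), 354 for hypoxia averaged, 2315 in NF vs NM, 1915 in HF vs HM and 3362 in HF vs NM. The block called 1 of the 8 genes in HM vs NM, PCO2, and 2 in HF vs NF, PCO1 and PCO2 (adjusted p = 0.0288 for each, edgeR). It changed no other call of the 8 genes. Between HF and NF, same-numbered samples deviated together over all tested genes in replicates 1 and 2 (r = 0.54 and 0.51) but not in replicate 3 (r = -0.11). DESeq2 on all samples called 166, 110, 471 and 1694 genes in HM vs NM, HF vs NF, hypoxia averaged and HF vs HM, and DESeq2 on the groups compared called 151, 144 and 1422 in HM vs NM, HF vs NF and HF vs HM, with both PCO1 and PCO2 (2 of the 8) in each of HM vs NM and HF vs NF.

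Leaving out 1 library at a time, the genes called ranged from 0 to 55 in HM vs NM, 0 to 10 in HF vs NF, 21 to 122 for hypoxia averaged, 859 to 1570 in NF vs NM, 35 to 1532 in HF vs HM, 1948 to 2812 for flg22 averaged and 1367 to 2199 in HF vs NM. The interaction stayed at 0. Of the 8 genes, 0 to 1 were called in HM vs NM (PCO2 without HM replicate 2, adjusted p = 0.0344, edgeR) and 1 to 2 for hypoxia averaged. HRA1 was not called for hypoxia averaged without NF replicate 2, NM replicate 2 or NM replicate 3, HRE2 was not called in HF vs NM without NM replicate 2 or 3, and MAP2A was not called in NF vs NM without NF replicate 2.

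Signs changed only for values that were not called. With scaling by library size only, which moved the median of all genes by -0.12 to -0.28 outside the interaction, the log2FC was -0.074 for PCO3 in HF vs NF, -0.12 and -0.056 for PCO3 and PCO4 in hypoxia averaged and -0.13 for PCO4 in HF vs HM. It was 0.010 for PCO5 in HF vs NM with the replicate block, and 0.056 for PCO3 in HM vs NM and 0.034 for the PCO5 interaction without the mock libraries numbered 3. Leaving out 1 library gave log2FCs in HM vs NM from -0.088 to 0.064 for PCO3, -0.13 to 0.075 for PCO4, -0.056 to 0.59 for PCO5 and -0.032 to 0.30 for ATE1. In HF vs NF they were -0.033 to 0.21 for PCO3, -0.079 to 0.40 for PCO5 and -0.093 to 0.27 for PRT6, and in hypoxia averaged -0.032 to 0.083 for PCO3 and -0.10 to 0.068 for ATE1. In NF vs NM they were -0.043 to 0.94 for PCO2, -0.59 to 0.056 for PCO5 and -0.26 to 0.054 for ATE1, and in HF vs HM -0.25 to 0.0088 for PCO3 and -0.091 to 0.11 for PCO4. In HF vs NM they were -0.091 to 0.047 for PCO4 and -0.38 to 0.27 for PCO5. The interaction was -0.10 to 1.05 for PCO1, -0.42 to 0.75 for PCO2, -0.0029 to 0.26 for PCO3, -0.38 to 0.27 for PCO5, -0.23 to 0.057 for ATE2 and -0.26 to 0.11 for PRT6. The causes were not tested.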

Other observations

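The remaining pathway genes, which neither hypoxia nor flg22 moved past the test, were the N-terminal amidase genes NTAN1 and NTAQ1, the recognition components PRT1 and BIG, and ACBP1 and ACBP2, acyl-CoA-binding proteins that hold RAP2.12 at the plasma membrane. Their averaged hypoxia log2FCs were 0.00 ± 0.23 for NTAN1, -0.02 ± 0.12 for NTAQ1, 0.01 ± 0.13 for PRT1, 0.20 ± 0.15 for BIG, -0.29 ± 0.13 for ACBP1 and 0.11 ± 0.13 for ACBP2 (SE). The averaged flg22 log2FCs were -0.22 ± 0.23 for NTAN1, 0.08 ± 0.12 for NTAQ1, -0.18 ± 0.13 for PRT1, -0.21 ± 0.15 for BIG, 0.09 ± 0.13 for ACBP1 and -0.04 ± 0.13 for ACBP2. ACBP1 had the lowest hypoxia value of the 17 tested list members, with 11.5, 10.3 and 11.3 CPM in HF and 10.0, 9.09 and 12.6 CPM in HM, against 12.0, 14.6 and 14.5 CPM in NF and 10.9, 12.1 and 15.1 CPM in NM (adjusted p = 0.476, edgeR), and the hypoxic and normoxic samples overlapped.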
